A study of Mus musculus with 8 samples.

Results

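Of the 16505 genes listed in the deposited expression table, 10 genes of the non-collagen extracellular matrix were followed in visceral fat of mice with and without a Mir181 double-knockout. They were taken by symbol, and all 10 were found and passed the filter on low values: the matricellular proteins Sparc and Postn, the glycoproteins Fn1 and Fbn1, the small leucine-rich proteoglycans Bgn, Lum and Dcn, and the lysyl oxidases Lox, Loxl1 and Loxl2. RNA came from epididymal white adipose tissue, a visceral fat depot of the male, from C57BL/6 mice fed a high fat diet for 12 weeks. One group was 4 wild-type mice (WT) and the other 4 mice with a Mir181 double-knockout (DKO). The labels do not name the deleted loci, the age, the litter or the housing. With no such record, the 8 samples stand for themselves, and a p-value gauges their spread only. Every sample of both groups was on the high fat diet, so an effect of the diet itself cannot be read.

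The matrix around fat cells is a mesh of collagen fibres, microfibrils and adhesive glycoproteins, laid down mostly by fibroblasts and fat cell progenitors and, in part, by fat cells. Proteoglycans such as decorin and lumican sit on collagen fibrils and control their width and spacing, and lysyl oxidases are copper enzymes that oxidise lysines of collagen and elastin so that fibres become cross-linked. In obesity the depot can become fibrotic, and a stiff matrix is known to accompany inflammation of visceral fat.

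The Mir181 genes encode microRNAs, short RNAs that pair with messenger RNAs through a seed at bases 2 to 8. The mature 5p arms of the mouse miR-181 family are shown to give the shared seed (capitals), with sequences from RefSeq on GRCm38.p6.
mmu-miR-181a-5p: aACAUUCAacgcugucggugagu
mmu-miR-181b-5p: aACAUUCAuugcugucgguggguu
mmu-miR-181c-5p: aACAUUCAaccugucggugagu
mmu-miR-181d-5p: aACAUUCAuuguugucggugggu

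A messenger RNA that carries the reverse complement of this seed, TGAATGT, in its 3′ untranslated region is a candidate target. Among the 10 matrix genes, only Lox had such a match, 1 in 3160 bases. The other 9 had none in untranslated regions of 488 (Dcn) to 2715 bases (Loxl2). In the same GENCODE M21 annotation, 19.3% of 12867 tested genes had a match, with a median region of 1365 bases, so 1 gene in 10 is a description of these letters only.

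Expression is given as log2 CPM, in which 0.5 read was added to each count and the result scaled to the library total. Libraries held 3736881 (DKO replicate 1) to 76838584 reads (DKO replicate 2), and the matrix gene with the fewest reads in any library was Lox with 306. In other respects the libraries were uneven. Ribosomal RNA genes took 3.08% to 11.5% of reads in WT replicates 1, 3 and 4 and DKO replicate 1, against at most 0.334% in WT replicate 2 and DKO replicates 2, 3 and 4. Differences within these classes are given with the members' changes and with the ratios that separated the groups, the class with more ribosomal RNA first; each class has a lone library of one group and so no error. Epididymis transcripts exceeded 1% of reads in WT replicate 2 (1.54%) and DKO replicates 2 (2.63%) and 4 (1.22%), and were at most 0.00504% elsewhere. Wilson 95% bounds lay within 0.0310 points of the ribosomal shares and 0.00616 points of the epididymis shares, for counting error only. The tissue's defining marker, the adipocyte hormone gene Adipoq, was high in both groups, at 9.34 ± 0.43 in WT and 11.47 ± 0.24 in DKO (log2 CPM, mean ± SD, n = 4).

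Of the 10 matrix genes, 6 were lower in the DKO and none was higher at an adjusted p under 0.05 in limma, a linear model fitted across all 13797 tested genes with Benjamini-Hochberg adjustment. Over all tested genes 16.1% were lower and 22.7% higher by the same rule, 38.8% in either direction. Of all these calls 58.6% were higher, and 46.4% when each library was centred on its median. At an unadjusted p under 0.05 in limma, 8 members were lower and 0 higher. The share of all tested genes at that threshold was not counted, so the 8 has no background. An adjusted p under 0.05 with a change of at least 1 on the log2 scale left 4 members lower. These were Postn, Lum, Loxl2 and Bgn, against 8.56% of tested genes. The 6 were Postn, Lum, Loxl2, Bgn, Lox and Loxl1, and for these 6 every DKO library lay below every WT library, a pattern found downward in 16.6% and in either direction in 37.4% of tested genes. Fbn1, Fn1, Dcn and Sparc did not pass. The median change of the 10 was −1.04 on the log2 scale, against 0.18 for all tested genes, which is −1.22 relative to that median. The count of lower members ran from 4 to 8 over 21 alternative analyses, and no member was called higher in any of them. The measurements are from bulk tissue, in which fewer cells of a type and less RNA per cell cannot be told apart.

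**Figure D1:**
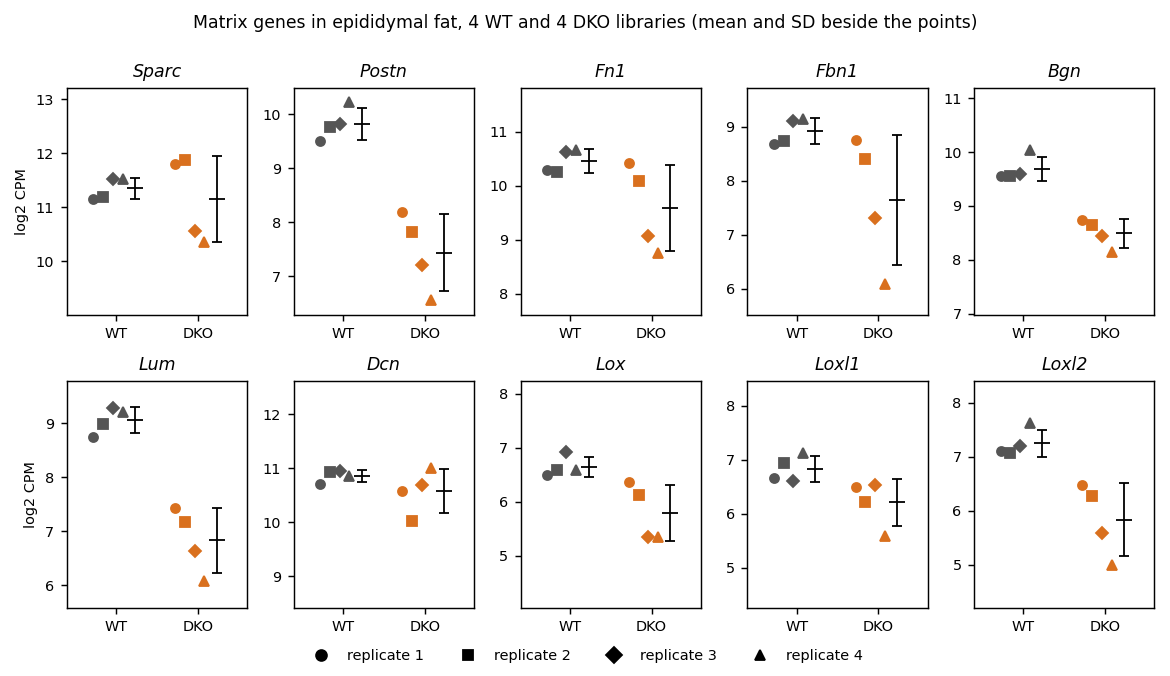
Log2 CPM (y axis) of the 10 matrix genes in 4 WT (grey) and 4 DKO (orange) libraries, 1 marker shape per replicate number, with the group mean and SD as a black bar; all panels span the same number of log2 units. Postn, Lum, Bgn, Lox, Loxl1 and Loxl2 do not overlap between the groups, while Sparc, Fn1, Fbn1 and Dcn do.

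The small leucine-rich proteoglycans split by gene. Lum, encoding the keratan sulfate proteoglycan lumican, read 8.74, 8.99, 9.28 and 9.20 log2 CPM in WT replicates 1 to 4 and 7.43, 7.16, 6.64 and 6.08 in DKO replicates 1 to 4. Every DKO value was at least 1.32 below the lowest WT value. Lum fell by 2.23 ± 0.27 (log2 fold change ± SE, limma adjusted p = 0.000362), a level 4.68-fold lower (95% interval 3.05 to 7.17). Within the ribosomal RNA classes the difference was −1.65 and −2.36.

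Bgn, encoding biglycan, a chondroitin sulfate proteoglycan that is also known as a signal to innate immune receptors, had the tightest DKO values of the 10. They were 8.74, 8.64, 8.45 and 8.14 log2 CPM, under WT values of 9.55, 9.56, 9.60 and 10.03. The groups stood 0.81 apart, and the SD was 0.26 in DKO against 0.23 in WT. Bgn fell by 1.19 ± 0.17 (limma adjusted p = 0.00079), 2.29-fold (1.75 to 2.99), and differed by −0.99 and −1.15 within the classes.

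Dcn, encoding decorin, a proteoglycan of collagen fibrils that also binds TGF-beta, did not follow them. WT values were 10.71, 10.93, 10.94 and 10.86 log2 CPM, and DKO values were 10.58, 10.02, 10.69 and 11.01, so the DKO range held the whole WT range. The difference was −0.28 ± 0.22 with a 95% interval from −0.79 to 0.22 (limma adjusted p = 0.334), and −0.26 and −0.35 within the classes. It was −0.10 without DKO replicate 2 and −0.43 without DKO replicate 4 (adjusted p = 0.714 and 0.138). An absence of change is not shown by this interval, which reaches a 1.72-fold lower level.

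A test of the difference between these 3 genes was made on ratios within each library, which do not depend on the scaling to library totals. The log2 ratio of Dcn to Lum rose from 1.81 ± 0.17 in WT to 3.75 ± 0.94 in DKO (n = 4 each), with DKO values of 3.15, 2.86, 4.05 and 4.93 all above the WT maximum of 1.97. The exact two-sided permutation test gave p = 0.0286, the smallest possible with 4 against 4, and an adjusted p of 0.0327 over the 8 pairs of members compared. Dcn to Bgn (1.17 ± 0.25 to 2.08 ± 0.64) and Bgn to Lum (0.63 ± 0.24 to 1.67 ± 0.33) gave the same p, also without overlap, although for Dcn to Bgn the lowest DKO value, 1.37, only just cleared the highest WT value, 1.36. Within the ribosomal RNA classes the differences were 1.39 and 2.01 for Dcn to Lum, 0.73 and 0.80 for Dcn to Bgn, and 0.66 and 1.21 for Bgn to Lum. Each of the 3 ratios was thus higher in the DKO than in WT in both classes. On the log2 scale Dcn to Lum is the sum of Dcn to Bgn and Bgn to Lum, so these are not 3 independent results.

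The matricellular genes differed most from each other. Postn encodes periostin, which is made by activated fibroblasts and binds collagen and fibronectin. It read 9.50, 9.77, 9.81 and 10.22 log2 CPM in WT and 8.18, 7.82, 7.20 and 6.55 in DKO. The lowest WT value exceeded the highest DKO value by 1.32, and the fall of 2.39 ± 0.33 (limma adjusted p = 0.000625) was the largest of the 10, a level 5.23-fold lower (3.14 to 8.73). Within the classes the difference was −1.66 and −2.58.

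Sparc encodes osteonectin, a collagen-binding glycoprotein needed for collagen assembly. Its WT values were 11.16, 11.20, 11.53 and 11.52 log2 CPM. The DKO values lay on either side of them, 11.80 and 11.87 in replicates 1 and 2 and 10.57 and 10.35 in replicates 3 and 4, so that no DKO library fell inside the WT range. The mean difference was −0.20 ± 0.37 with a 95% interval from −1.04 to 0.64 (limma adjusted p = 0.688). Its sign and size depended on the setting: it was 0.06 without DKO replicate 4, −0.01 without DKO replicate 3, −0.42 and −0.44 without DKO replicates 1 and 2, 0.005 with quantile normalization and 0.40 within the class with more ribosomal RNA. The ratio of Sparc to Postn rose from 1.52 ± 0.20 to 3.71 ± 0.29 (exact permutation p = 0.0286, adjusted p = 0.0327), a 4.55-fold change, and by 2.07 and 2.31 within the classes. In this ratio the 4 DKO libraries, at 3.37 to 4.05, were closer together than in either gene alone.

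The RefSeq promoter table held 4 of the 10 genes (Sparc, Postn, Bgn and Fbn1) in 5 windows from 250 bases before to 50 after a start. Upstream sequence of a start of Postn and of Bgn is shown because both genes were called lower and their windows differ in composition, with the TATA box letters TATAAA in capitals. On GRCm38.p6 these are chr3:54360857-54361106 (plus strand, 52.0% G or C) and chrX:73483351-73483600 (plus strand, 64.4% G or C).
Postn: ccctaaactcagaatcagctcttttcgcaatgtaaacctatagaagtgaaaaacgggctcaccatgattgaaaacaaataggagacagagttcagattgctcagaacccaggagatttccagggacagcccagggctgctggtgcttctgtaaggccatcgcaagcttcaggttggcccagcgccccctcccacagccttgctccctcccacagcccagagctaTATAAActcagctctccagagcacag
Bgn: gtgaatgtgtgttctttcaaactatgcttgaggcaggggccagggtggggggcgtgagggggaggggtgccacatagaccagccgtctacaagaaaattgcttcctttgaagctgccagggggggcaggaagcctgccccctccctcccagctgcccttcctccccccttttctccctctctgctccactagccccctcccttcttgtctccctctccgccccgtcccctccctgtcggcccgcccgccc

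The Postn match begins at −26 from the start. Postn had another window, not shown, with 40.4% G or C upstream and no TATAAA, so the window shown is the one with the match. TATAAA on either strand was in 1 of the 5 windows, against 13.6% of all 32851 promoters in the table. TGANTCA, the AP-1 motif, which reads the same on both strands, was in none of the 5 and in 7.81% of all promoters. These are matches of letters in the windows searched, and the expression data do not test them.

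The large glycoproteins Fn1 and Fbn1 were lower in some DKO libraries only. Fn1 encodes fibronectin, the adhesive glycoprotein that integrins assemble into fibrils. It read 10.30, 10.25, 10.62 and 10.67 log2 CPM in WT and 10.42, 10.08, 9.07 and 8.75 in DKO. DKO replicate 1 lay inside the WT range replicate 2 lay just below it, and replicates 3 and 4 lay over 1 log2 unit below it. The difference of −0.88 ± 0.36 (95% interval −1.69 to −0.08) did not pass (limma adjusted p = 0.0769), and was −0.11 and −0.95 within the classes. Without DKO replicate 1 it was −1.16 and passed (limma adjusted p = 0.0169). It was −0.71 (adjusted p = 0.187) without DKO replicate 3, −0.61 (adjusted p = 0.168) without DKO replicate 4, and −0.53 (adjusted p = 0.282) in a fit that included the class of ribosomal RNA.

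Fbn1 encodes fibrillin-1, the main protein of microfibrils, which hold latent TGF-beta complexes and guide elastic fibres. WT values were 8.68, 8.74, 9.11 and 9.15 log2 CPM, and DKO values 8.76, 8.41, 7.31 and 6.09, the widest DKO range of the 10 genes (2.67). Only replicate 1 reached the WT range. The difference was −1.28 ± 0.51 (95% interval −2.42 to −0.14, limma adjusted p = 0.0728), with −0.22 and −1.47 within the classes. It passed without DKO replicate 1 (−1.65, adjusted p = 0.0213) and without DKO replicate 2 (−1.53, adjusted p = 0.0478). Without DKO replicate 4 it was −0.76 (adjusted p = 0.102), and −0.85 (adjusted p = 0.255) in a fit that included the class of ribosomal RNA. The log2 ratio of Fn1 to Fbn1 was 1.54 ± 0.05 in WT and 1.94 ± 0.48 in DKO (exact permutation p = 0.0286, adjusted p = 0.0327). Without DKO replicate 4, which stood at 2.65, the difference was 0.16 in place of 0.40, the other DKO values being 1.66, 1.67 and 1.76, and within the classes it was 0.11 and 0.52.

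All 3 lysyl oxidases were lower, Loxl2 by the most. Loxl2, a lysyl oxidase-like enzyme with scavenger receptor domains that acts on collagen IV among other substrates, read 7.11, 7.07, 7.20 and 7.62 log2 CPM in WT and 6.48, 6.27, 5.59 and 4.99 in DKO. The gap between the groups was 0.59. Loxl2 fell by 1.42 ± 0.30 (limma adjusted p = 0.00613), 2.67-fold (1.66 to 4.29), with −0.83 and −1.45 within the classes.

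Lox, the founding enzyme of the family, had WT values of 6.50, 6.58, 6.92 and 6.59 log2 CPM and DKO values of 6.36, 6.12, 5.35 and 5.35. The groups were separated by only 0.15. The fall of 0.85 ± 0.24 (limma adjusted p = 0.0198) came to 1.81-fold (1.25 to 2.62). The call was lost without WT replicate 3 (adjusted p = 0.0572), without DKO replicate 3 (adjusted p = 0.0534) and without the 3 libraries rich in epididymis transcripts (−0.82, adjusted p = 0.0520). It was also lost in a fit that included the class of ribosomal RNA (−0.65, adjusted p = 0.0755). Within the classes the Lox difference was −0.31 and −0.98.

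Loxl1, needed for elastic fibre renewal, was the least firm of the 6 calls. It stood at 6.66, 6.93, 6.61 and 7.12 log2 CPM in WT and 6.49, 6.22, 6.52 and 5.59 in DKO, a gap of 0.09 between the groups. It fell by 0.63 ± 0.21 (limma adjusted p = 0.0447), 1.54-fold (1.10 to 2.16). Of 21 alternatives 13 ended the call, among them each single WT library left out, and without the 3 libraries rich in epididymis transcripts the difference was −0.29 (adjusted p = 0.274). Without DKO replicate 4 it was −0.42 (adjusted p = 0.0641), without DKO replicate 2 −0.63 (adjusted p = 0.0726), and without WT replicates 1 to 4 the adjusted p ran from 0.0560 to 0.124. Within the classes the Loxl1 difference was −0.31 and −0.82.

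The RNA balance among these genes moved away from Loxl2, by narrow margins between the groups. The log2 ratio of Lox to Loxl2 rose from −0.60 ± 0.31 to −0.04 ± 0.27, and Loxl1 to Loxl2 from −0.42 ± 0.20 to 0.37 ± 0.47, both without overlap (exact permutation p = 0.0286, adjusted p = 0.0327). For Lox to Loxl2 the lowest DKO value was −0.25 and the highest WT value −0.29. For Loxl1 to Loxl2 they were −0.05 and −0.13. Within the classes these ratios differed by 0.52 and 0.47, and by 0.52 and 0.63. Lox to Loxl1 overlapped (−0.18 ± 0.36 in WT and −0.41 ± 0.51 in DKO, exact permutation p = 0.571). Each of these lysyl oxidase ratios follows from the others on the log2 scale, so they are not independent results.

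**Figure D2:**
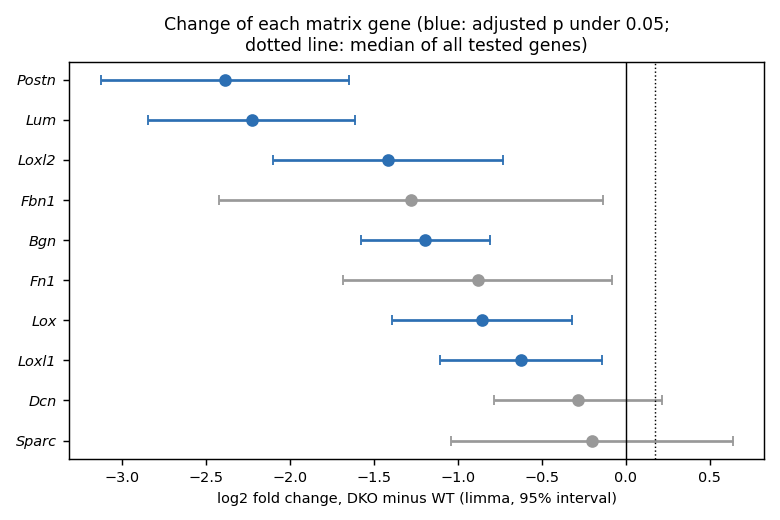
Log2 fold change of each matrix gene (x axis, DKO minus WT) with its 95% limma interval, blue where the adjusted p is under 0.05 and grey otherwise; the dotted line marks the median of all tested genes (0.18). Postn and Lum lie farthest to the left at −2.39 and −2.23, and the intervals of Dcn and Sparc cross 0.

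The DKO libraries were not alike. The SD was larger in DKO than in WT for all 10 genes, as for 68.3% of tested genes, and the ratio of the SDs ran from 1.15 (Bgn) to 4.96 (Fbn1). In 8 of the 10 (all but Dcn and Loxl1) DKO replicates 1 and 2 both exceeded replicates 3 and 4, an order shown by 18.1% of tested genes. Replicate 4 was the lowest in 8 of 10 (all but Dcn and Lox), against 19.3% of tested genes. The gap between the means of replicates 1 and 2 and of replicates 3 and 4 was 1.88 for Fbn1, 1.37 for Sparc and 1.34 for Fn1, but 0.40 for Bgn and −0.55 for Dcn, which ran the other way. It was 1.21 for the collagen gene Col3a1. Genes of red blood cells followed this split and made up 0.0832% and 0.0421% of DKO replicates 1 and 2 but 0.411% and 1.21% of replicates 3 and 4 (Wilson 95% bounds within 0.00476 points). The summed CPM of smooth muscle and pericyte markers did not follow it, and set apart replicate 4 alone, at 3278 against 585 to 700 in the other DKO replicates. Their part in the order of the libraries was not tested.

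**Figure D3:**
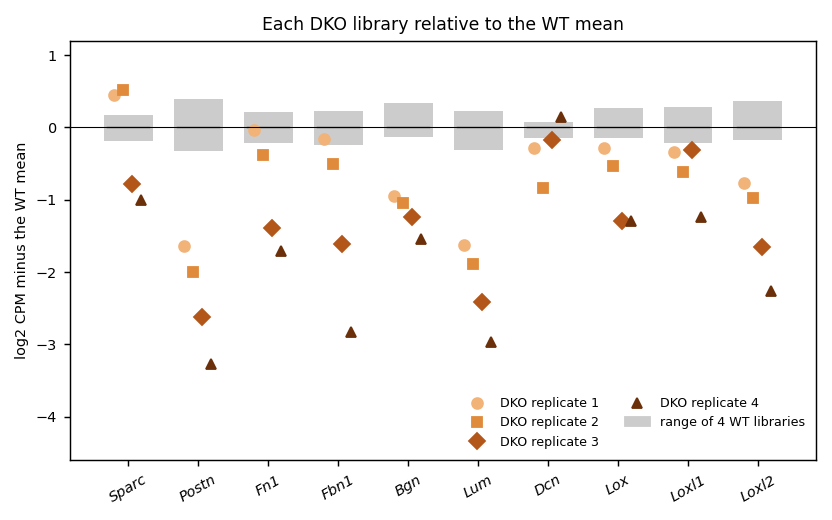
Log2 CPM of each DKO library minus the WT mean (y axis) for the 10 matrix genes, 1 marker per DKO replicate, with the range of the 4 WT libraries as a grey box. Replicates 1 and 2 (light) lie above replicates 3 and 4 (dark) in 8 genes, and for Sparc they lie above the WT range while replicates 3 and 4 lie below it.

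Set against the summed fibrillar collagen genes Col1a1, Col1a2 and Col3a1, most of the matrix genes were relatively higher in the DKO. Col3a1, Col1a1 and Col1a2, which encode the main chains of collagens III and I, fell by 1.99 ± 0.39, 1.69 ± 0.34 and 1.49 ± 0.29 (limma adjusted p = 0.00382, 0.00469 and 0.00399). The ratio of each matrix gene to their summed CPM was compared within libraries, as 10 ratios. Sparc rose against collagen from a log2 ratio of −1.34 ± 0.14 to 0.28 ± 0.42, 3.09-fold. Dcn rose from −1.84 ± 0.21 to −0.29 ± 1.14, 2.92-fold, with its 4 DKO values spread from −1.40 to 1.27. Loxl1, Lox, Fn1, Bgn and Loxl2 rose 2.31-fold, 1.97-fold, 1.93-fold, 1.56-fold and 1.33-fold against collagen. Postn went the other way, from −2.87 ± 0.10 to −3.43 ± 0.27, a ratio 0.680 times that in WT. For these 8 the groups did not overlap (exact permutation p = 0.0286, adjusted p = 0.0357 over the 10). Lum (−3.64 ± 0.19 to −4.04 ± 0.29) and Fbn1 (−3.77 ± 0.14 to −3.22 ± 0.49) overlapped (exact permutation p = 0.0857). Within the ribosomal RNA classes the difference was 1.75 and 1.63 for Sparc, 1.09 and 1.54 for Dcn, and −0.32 and −0.68 for Postn. It was 1.04 and 1.08 for Loxl1, 1.03 and 0.92 for Lox, 1.23 and 0.95 for Fn1, 0.35 and 0.74 for Bgn, and 0.51 and 0.45 for Loxl2. For Lum it was −0.30 and −0.47, and for Fbn1 1.12 and 0.42. Without DKO replicate 4 the difference against collagen was 0.38 in place of 0.64 for Bgn and 1.03 in place of 1.55 for Dcn, and without DKO replicate 1 it was 0.35 in place of 0.55 for Fbn1. Postn was therefore reduced by more than the sum of these collagen genes. The other 7 separated genes were not reduced in proportion to that sum. Col3a1 weighs most in the sum, with a WT mean of 12.09 log2 CPM against 10.44 for Col1a2 and 9.78 for Col1a1. It also fell the most of these collagen genes. Loxl2 changed by −1.42 and Col1a2 by −1.49, and ratios to single collagen genes were not tested. Of the 6 tested fibrillar collagens 4 were called lower. Col5a1 (−0.45 ± 0.27, limma adjusted p = 0.204) and Col5a3 (−0.002 ± 0.46, adjusted p = 0.998) were not. Both were singled out after their values were seen, and ratios to them were not computed.

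**Figure D4:**
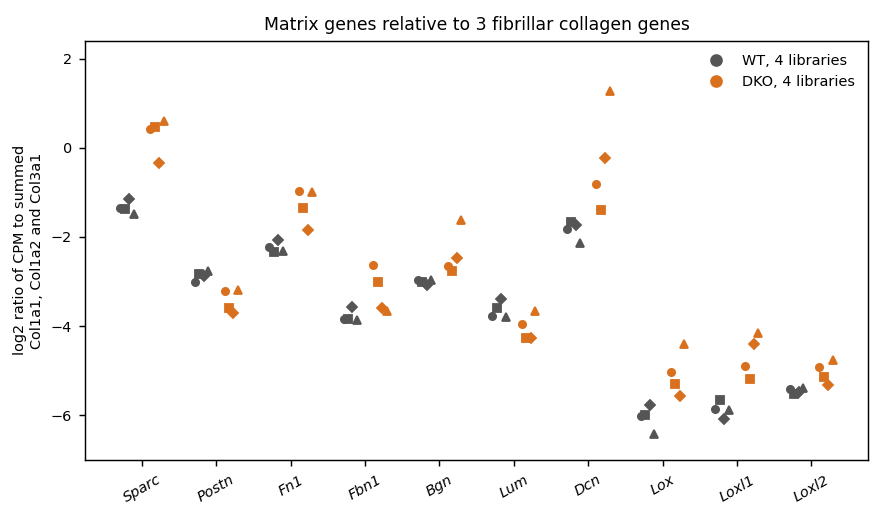
Log2 ratio of each matrix gene to the summed CPM of Col1a1, Col1a2 and Col3a1 (y axis) in 4 WT (grey) and 4 DKO (orange) libraries, 1 marker per library. Sparc, Dcn, Fn1, Bgn and the 3 lysyl oxidases lie higher in every DKO library, and Postn lies lower.

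Ratios to Pdgfra, the growth factor receptor that marks fibroblasts and fat cell progenitors, were also computed. Changes of the 14 tested markers of these cells ran from −1.48 to 1.31 (log2), and ratios to markers other than Pdgfra were not computed. Pdgfra itself differed by −0.32 ± 0.12 (limma adjusted p = 0.0567), and by −0.47 (adjusted p = 0.0081) with each library centred on its median. Relative to Pdgfra, Postn, Lum and Bgn were lower in every DKO library than in any WT library, with log2 ratios of 2.66 ± 0.31 against 0.59 ± 0.70, 1.88 ± 0.32 against −0.02 ± 0.58, and 2.52 ± 0.28 against 1.65 ± 0.27. Each had the smallest possible exact permutation p (0.0286), which did not pass over the 10 ratios (adjusted p = 0.0952). For a ratio at this smallest p, here and in the families above, the adjusted p is set by how many ratios of the family reach it. It does not gauge the size of the change, so passing in one family and not in another does not rank the ratios. Within the classes Postn differed by −1.31 and −2.05, Lum by −1.30 and −1.83 and Bgn by −0.64 and −0.63. The other 7 overlapped, Dcn at 3.69 ± 0.18 and 3.73 ± 0.53 (exact permutation p = 0.943).

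Levels of different genes were compared per kilobase of annotated exon. In WT, Sparc led at 694 ± 95.7 CPM per kilobase, then Dcn at 319 ± 22.6 and Lum at 219 ± 35.3. The libraries of these 3 did not overlap with one another. Bgn (136 ± 23.4), Fn1 (122 ± 18.3) and Postn (106 ± 22.7) followed with overlapping ranges. Fbn1 (40.4 ± 6.73), Loxl1 (34.9 ± 5.85), Loxl2 (28.5 ± 5.33) and Lox (21.1 ± 2.82) were lowest, and each overlapped with its neighbour in the order. In DKO, Sparc (669 ± 343) and Dcn (269 ± 72.6) stayed in front, while the mean of Lum was 49.3 ± 18.9, below Fn1 (73.1 ± 38.2) and Bgn (59.8 ± 10.4). The DKO libraries of Lum (27.6 to 70.3), Bgn (46.2 to 69.9) and Fn1 (36.7 to 117) overlapped, so their order is one of means only. Those of Sparc and Dcn overlapped as well. Postn was at 21.7 ± 9.94, close to Loxl1 (23.1 ± 6.12) and Fbn1 (20.6 ± 13.7). With the longest transcript as length, Bgn stood at 312 in WT and above Lum, and Postn at 177 above Fn1 at 171, so these neighbours cannot be ordered. In DKO, Postn was then at 36.2, against 23.1 for Loxl1 and 20.9 for Fbn1, so its closeness to them depends on the length used. In GENCODE M21, Fn1, Fbn1, Lox and Loxl2 each overlap a gene on the opposite strand (Apol7d, Gm9913, AC161119.1 and Gm27177). Since the strand mode of the counting is not known here, reads of such partners cannot be told apart from theirs. On the same strand, Loxl2 overlaps Mir6950 and the collagen gene Col3a1 overlaps Gm47302, which the strand mode would not settle. Of the summed CPM of the 10 genes, Postn made up 10.1% ± 1.15 in WT and 3.01% ± 0.631 in DKO, Lum 5.90% ± 0.412 and 1.95% ± 0.293, and Sparc 29.0% ± 1.07 and 39.7% ± 10.4. The sum itself was 9060 ± 1106 CPM in WT and 6081 ± 1815 in DKO.

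Other genes of matrix assembly were read as whole lists. Of 18 tested genes for collagen processing and other lysyl oxidases, 9 were lower and 1 higher (median −0.43, −0.61 relative to all tested genes). The 3 with the smallest p were Pcolce, an enhancer of procollagen cleavage (−1.44 ± 0.18, limma adjusted p = 0.000452), the lysyl oxidase Loxl3 (−0.87 ± 0.11, adjusted p = 0.000453) and the lysyl hydroxylase Plod2 (−1.21 ± 0.16, adjusted p = 0.000586). The remaining lysyl oxidase, Loxl4, read 0.15 ± 0.30 (adjusted p = 0.715) and was picked out after its value was seen. Fibrillar collagens were lower in 4 of 6 tested genes and higher in none by limma (also 0 at an unadjusted p under 0.05), with Col5a2 at −1.41 ± 0.26. Receptors of fibronectin and matrix were lower in 7 and higher in 2 of 14, with the fibronectin receptor subunit Itga5 at −1.18 ± 0.14, the vitronectin receptor subunit Itgav at −1.36 ± 0.15 and the collagen receptor Ddr1 at 1.54 ± 0.17.

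Several matrix lists went both ways. Elastic fibre and microfibril genes were lower in 5 and higher in 4 of 16 (median −0.31), and lower in 8 and higher in 2 with each library centred on its median. The elastic fibre glycoprotein Emilin1 fell by 1.17 ± 0.14 (limma adjusted p = 0.000294) and the microfibril glycoprotein Mfap5 by 1.48 ± 0.26, while the latent TGF-beta binding protein Ltbp4 rose by 1.21 ± 0.19 (adjusted p = 0.00123). Of 8 other small leucine-rich proteoglycans, Podn (1.48 ± 0.34) and Fmod (0.98 ± 0.23) were higher. Epyc was lower (−1.32 ± 0.25, from 188 WT and 270 DKO reads over unequal library totals), but not without the libraries rich in epididymis transcripts (adjusted p = 0.0646). Other matricellular genes were lower in 4 and higher in 3 of 19. The osteopontin gene Spp1, also a macrophage product, changed by −4.75 ± 0.21, the calcium-binding protein gene Smoc1 by 2.26 ± 0.21, and Thbs4, a thrombospondin, by −2.30 ± 0.54 on 102 WT and 105 DKO reads. In the basement membrane list 6 were higher and 1 lower of 17 (median 0.34), led by the laminins Lama5 (1.44 ± 0.16) and Lamb2 (0.96 ± 0.13) and the nidogen Nid2 (0.72 ± 0.16).

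**Figure D5:**
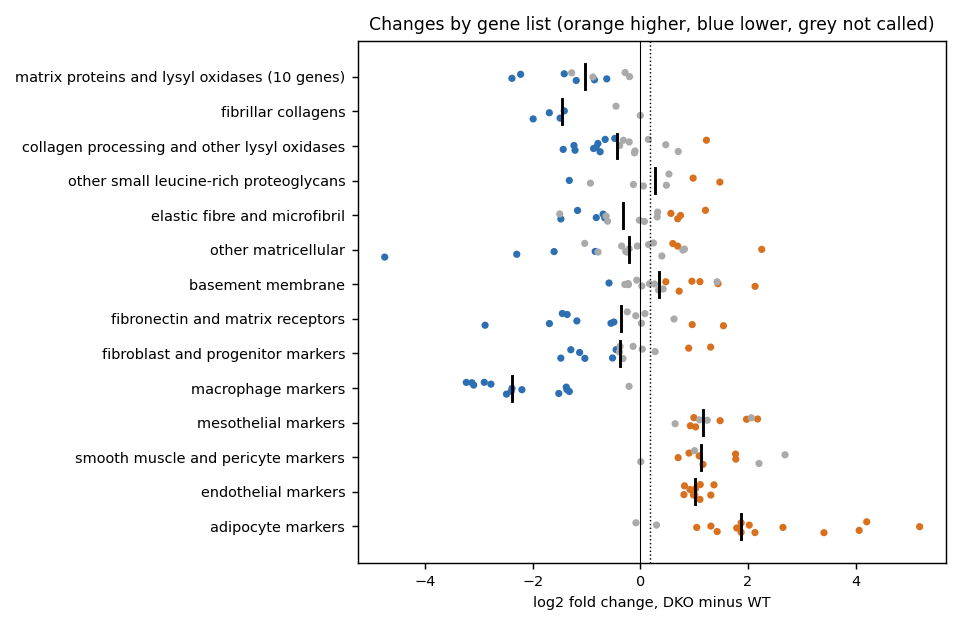
Log2 fold change (x axis, DKO minus WT) of each tested gene, 1 point per gene, in the 10 matrix genes and 13 other lists, orange where called higher, blue where called lower and grey where not called; black bars are list medians and the dotted line the median of all tested genes. The 10 matrix genes, fibrillar collagens and macrophage markers lie to the left. Adipocyte, mesothelial, smooth muscle and pericyte, and endothelial markers lie to the right.

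Markers of the cell types in the tissue moved as well, and their part in the matrix results was not tested. Fibroblast and progenitor markers were lower in 6 and higher in 2 of 14 tested genes (median −0.38), with Mfap5, Thy1 (−1.03 ± 0.18) and the fibroblast protease Fap (−1.29 ± 0.24) at the front. Their summed CPM was nonetheless 4676 to 5391 in WT and 7610 to 11998 in DKO, a sum dominated by Gsn, which fat cells also express (1.31 ± 0.27, limma adjusted p = 0.00524, singled out after its value was seen). Macrophage markers were lower in 13 of 14, with a median of −2.40, a summed CPM of 10216 to 11573 in WT and 1827 to 2694 in DKO, and the macrophage surface receptor gene Adgre1 at −2.90 ± 0.16, between the signalling adaptors Tyrobp (−2.78 ± 0.14) and Fcer1g (−2.49 ± 0.14) in order of p. Adipocyte markers were higher in 13 of 15 (median 1.87, summed CPM 16769 to 26402 in WT and 32215 to 51672 in DKO), with Adipoq at 2.13 ± 0.24, the gluconeogenic enzyme Pck1 at 3.41 ± 0.32, the hormone gene Retn at 4.07 ± 0.41 and the adrenergic receptor Adrb3 at 4.21 ± 0.45. Endothelial markers were higher in 10 of 10, with the tight junction gene Cldn5 at 1.37 ± 0.14, the transcription factor Erg at 1.31 ± 0.15, Pecam1 at 0.92 ± 0.13 and summed CPM of 452 to 605 in WT and 920 to 1169 in DKO. Mesothelial markers were higher in 6 of 10 (2 of 10 without WT replicate 1, WT replicate 4, DKO replicate 3 or DKO replicate 4, each left out alone), led by Upk3b (1.48 ± 0.31), Msln (0.93 ± 0.24) and Krt19 (2.18 ± 0.63), with summed CPM of 94.5 to 206 and 212 to 546. Smooth muscle and pericyte markers were higher in 6 of 10 (3 without WT replicate 4), led by Abcc9 (1.09 ± 0.18), Notch3 (0.70 ± 0.16) and Rgs5 (0.90 ± 0.24), with summed CPM of 276 to 402 and 585 to 3278. No marker of these 6 cell types had 0 reads in any library. Red blood cell genes were higher in 2 of 6 by limma (6 at an unadjusted p under 0.05, median 2.52), and epididymis genes in 0 of 16 (also 0 at an unadjusted p under 0.05), with 14 of the 19 listed at 0 reads in at least 1 library.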

How the data were processed

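The deposited file is 1 table of 16505 genes by 8 libraries, whose values the authors put on the voom log2 CPM scale. Per the labels' protocols, libraries were made with a stranded polyA kit and read as 75-base single ends. Build mm9 and the tools Trimmomatic, TopHat2, featureCounts and limma are named, per the submitters' processing notes. Their versions, settings, strand mode and any low-count filter are not given here. Whole reads were worked out from the deposited log2 values (100% within 0.01 of a whole number), giving 3736881 to 76838584 reads per library; intervals cover counting error only.

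Here limma 3.58.1 in R 4.3.3 (lmFit, eBayes with a mean-variance trend, group as the only term) was run two-sided on the 13797 genes averaging 0 log2 CPM or more, with Benjamini-Hochberg adjustment at 0.05. The fit was tested on simulated reads with the same spread setting in both groups. It recovered 92% of 2-fold and 100% of 4-fold changes, with 3 false calls. That setting does not cover the larger spread of the DKO libraries. Ratios were tested with exact permutation tests in scipy 1.17.1, and plots were drawn with matplotlib 3.10.9. Lengths and untranslated regions came from GENCODE M21 (GRCm38), matched by symbol for 93.3% of tested genes. The members and lists were chosen with earlier results of these data known. The text names all members, the 3 genes with the smallest p of each list, Col1a1, Col1a2, Col3a1, Adgre1, Pdgfra and Adipoq. A few other genes are marked where they were chosen after their values were seen. Protein comparisons were not made here. Alternatives covered the scale, filter, scaling, depth, variance model, weights, replicate number, ribosomal RNA class, epididymis transcripts and each library left out.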

Additional observations from a re-analysis of the deposited data

Results flagged for a closer look

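Bgn in WT replicate 4 stood apart from the other WT libraries at 10.03 log2 CPM, the others lying between 9.55 and 9.60. Its gap was 0.900 of the group's range, above Dixon's 95% critical value for 4 samples. The check was made on 20 groups of 4 (10 genes in WT and in DKO), and chance alone flags about 1 in 20. Without WT replicate 4 Bgn still passed, as it did in all 21 alternatives.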

How the results depend on the processing

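Postn, Lum, Bgn and Loxl2 kept their direction and call in all 21 alternatives, Lox in 17 and Loxl1 in 8, and Fn1 and Fbn1 each passed in 3. The number of members lower ran from 4 to 8 and of members higher was 0 throughout. Sparc changed sign with quantile normalization (0.005), in the fit that included the class of ribosomal RNA (0.067) and without DKO replicate 4 (0.064), never past the threshold. With single libraries left out it ran from −0.442 to 0.064; the cause was not tested. Over all tested genes 2113 to 4428 were higher and 1711 to 2964 lower, and the share of higher among calls was 58.6% with total scaling, 46.4% with each library centred on its median and 48.2% with quantile normalization. With array weights Fn1 (−1.20, adjusted p = 0.00689) and Fbn1 (−1.62, adjusted p = 0.00858) passed, and with quantile normalization Fn1 (−0.92, adjusted p = 0.0495).

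The replicate numbers were not treated as pairs. Deviations from the group means correlated between same-numbered WT and DKO libraries at 0.362, 0.790, 0.239 and −0.359 across tested genes, so number 4 did not go with its partner, and not every library correlated best with its own number. With the replicate block 5 members were lower, Loxl1 no longer passing (−0.63, adjusted p = 0.0795), and no other member's call changed; over all tested genes it gave 3232 higher and 2136 lower. With reads thinned to the smallest library 5 members were lower, Loxl1 again not passing (−0.63, adjusted p = 0.0606). The lowest count of a member was 306 reads.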
